A study of Bos grunniens with 36 samples.

Results

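The step across calving was measured as the difference between mammary gland biopsies of 4 female yaks (Bos grunniens) at day +1 and biopsies of the same 4 animals at day -15, that is 1 day after and 15 days before calving. The members are the 8 arrays, of 36 in the series, whose sample names give these days, 4 at each day, matched by the number of the yak. The labels record no treatment, breed or age, and by the labels the groups differ in the day. The remaining 28 arrays are of the same yaks at day -30, +15, +30, +60, +120, +180 and +240, and entered the fit only to estimate the spread of each gene. The probe kept for each gene was also chosen by its mean over all 36 arrays. About 1 g of udder tissue was taken at a time, from the left and the right rear gland in turn, and the side is not recorded for single arrays, so that side and day could not be separated. Total RNA was labelled with a single dye and hybridised to an array designed on cattle sequences, so that a probe may bind yak RNA less well where the species differ.

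Milk secretion begins around calving, when progesterone falls while prolactin and glucocorticoids act on an epithelium that was built during pregnancy. Much of the growth of ducts and alveoli takes place during pregnancy. Towards calving, alveolar cells close their tight junctions and fill with secretory product, and myoepithelial cells around the alveoli contract under oxytocin to eject milk. The first milk, colostrum, carries antibodies and antimicrobial proteins.

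A level below is the log2 value in the authors' table, in which 0 is the 75th percentile of that array. Because probes differ in how well they bind, a level is compared only with the same probe on another array. A difference is the mean at day +1 minus the mean at day -15, with its standard error (SE) from the fit over all 36 arrays. A gene is called when the adjusted p of limma, with yak as a random block, is under 0.05. All 4 samples of a day come from different animals, so the SE covers variation between yaks. In bulk tissue, fewer cells of a type and less RNA per cell cannot be told apart.

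The 2 deposited records of these arrays contradict each other. Every column of the table equals 1 scanner file less a constant, and for 0 of 36 columns is that the file of the sample that the column names. The matched file carries the same day for 9 columns, another day for 27 and the same yak for 0. For yaks 1 to 3, the columns of day +1 equal files labelled day -15, and those of day -15 equal files labelled day -30. For yak 4, the columns of both days equal files labelled yak 1 at the same day. All results here follow the day and yak of the table's columns. With the days of the scanner files put on the same values, 1 gene was called (3007 at an unadjusted p under 0.05), it was none of the genes called here, and 14 of the 32 named genes that were called changed direction. In the table's record each of the 9 days lies on 1 slide of its own and each yak at 1 position on every slide. Day and slide, and yak and position, therefore cannot be told apart. The 75th percentile of the signal was 4853 to 5572 intensity units at day -15 and 2084 to 5354 at day +1, where yak 4 had the dimmest array. Between 83.0% and 84.9% of spots lay well above background at day -15, and 78.3% to 86.1% at day +1. All 9 measured milk protein genes and all 10 luminal epithelial markers, the defining genes of the labelled tissue, exceeded background on both days. So did all measured markers of skeletal muscle (8), red blood cells (7), neutrophils (12), adipocytes (10) and T and NK cells (13), so that detection alone does not tell the tissue.

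The sequences that follow are those of 8 array probes for genes on which the results turn. Each was taken to lie in coding sequence, which was not tested. They are 60-base cattle oligonucleotides as given in the array files, printed 5′ to 3′ with positions on the cattle assembly UMD 3.1. Where the interval is longer than the probe, the probe crosses an intron and so covers an exon junction of the mRNA. RSPO1, DNALI1 and CHRDL2 fell, and RRAD, CD14, CYP4A11, MYH2 and MYH1 rose. For RSPO1, RRAD and CD14 the levels and calls below come from another probe of the gene, which is not printed.
RSPO1 (chr3:108870852-108872918, plus strand, exon junction): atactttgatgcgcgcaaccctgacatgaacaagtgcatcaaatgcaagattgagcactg
DNALI1 (chr3:108918186-108920147, minus strand, exon junction): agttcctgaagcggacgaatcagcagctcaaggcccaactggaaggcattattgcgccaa
CHRDL2 (chr15:54794191-54795175, minus strand, exon junction): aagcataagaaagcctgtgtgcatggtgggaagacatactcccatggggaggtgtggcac
RRAD (chr18:34746629-34746688, minus strand): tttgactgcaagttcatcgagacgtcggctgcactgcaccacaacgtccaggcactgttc
CD14 (chr7:53448109-53448168, minus strand): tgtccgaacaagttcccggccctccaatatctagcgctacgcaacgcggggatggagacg
CYP4A11 (chr3:99819808-99819867, plus strand): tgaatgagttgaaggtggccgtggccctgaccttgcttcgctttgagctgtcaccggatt
MYH2 (chr19:30140558-30140736, minus strand, exon junction): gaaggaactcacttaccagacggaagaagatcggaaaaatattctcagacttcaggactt
MYH1 (chr19:30114597-30114656, minus strand): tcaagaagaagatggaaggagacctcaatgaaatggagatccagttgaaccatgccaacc

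Of 20110 genes or unnamed transcripts tested, 359 were called (1.79%), of which 103 were higher at day +1 (0.512%) and 256 lower (1.27%). A symbol was available for 239 of them, 71 higher and 168 lower. The called rises were larger than the called falls, with medians of 1.59 and -1.02 on the log2 scale, and the median over all genes was -0.05. In 358 of the 359 the difference had the same sign in all 4 yaks, and in 350 the arrays of one day lay wholly on one side of the other, which follows in large part from the call itself. Over all genes 15.6% were higher and 24.6% lower in each yak, and 7.05% and 12.3% were so without overlap. A fit to the 8 arrays alone, paired by yak, called 2126 genes (10.6%), including 347 of the 359 in the same direction. The count was lower whichever animal was left out: without yak 1, 2, 3 or 4 it was 30, 57, 37 and 161. These fits also have fewer arrays, and the part of that in the lower counts was not tested. Of the 32 called genes named below, 6 were called in all 4 of those fits, namely DUSP9, RSPO1, DNALI1, CHRDL2, RRAD and PGLYRP1. The other 26 kept their direction in all 4 fits but lost the call in at least 1, and for those the highest adjusted p over these fits is given.

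**Figure D1:**
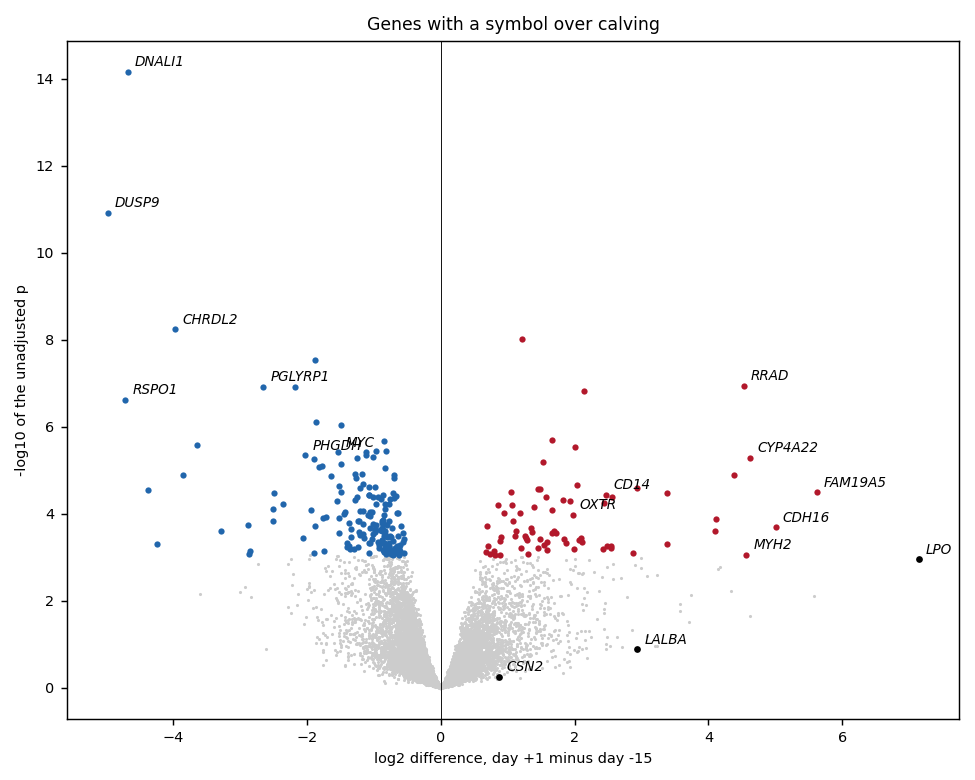
Each point is 1 of the 13423 genes with a symbol, with the log2 difference between day +1 and day -15 on the horizontal axis and -log10 of the unadjusted limma p on the vertical axis. Red points were called higher, blue points lower, grey points were not called, and the black points mark LPO, LALBA and CSN2, which were not called.

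The 10 largest falls with a symbol included growth signals, a pair of antagonists or relatives of bone morphogenetic proteins and enzymes that modify sugars and hormones. RSPO1, a secreted amplifier of WNT signalling that mammary epithelium releases in the mouse, stood at 2.69, 2.52, 2.47 and 2.31 in yaks 1 to 4 at day -15 and at -2.90, -2.01, -0.81 and -3.15 at day +1. All 4 arrays of day +1 lay below all 4 of day -15, by a difference of -4.71 ± 0.71 (SE, n = 4 yaks; adjusted p = 0.000382, limma), a 26.2-fold fall. The difference at its exon-junction probe shown above was -5.25. Without single yaks the adjusted p of RSPO1 ran from 0.00225 to 0.0481.

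DNALI1, a light intermediate chain of axonemal dynein, fell from 0.85, 0.87, 0.64 and 0.49 to -4.24, -4.42, -2.62 and -4.59. Its difference of -4.68 ± 0.33 had the smallest adjusted p of all genes (1.38e-10, limma), and the days did not overlap. DUSP9, a phosphatase that inactivates MAP kinases, was at -0.37, -0.57, -2.48 and -1.72 at day -15 and at -6.20, -6.67, -6.68 and -5.50 at day +1. This 31.5-fold fall of -4.98 ± 0.47 (adjusted p = 1.21e-07, limma) was the largest among genes with a symbol under the naming rule.

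CHRDL2, a chordin-like protein that binds bone morphogenetic proteins, went from 0.54, 1.73, -0.64 and 0.63 to -3.78, -4.25, -2.90 and -2.69. It fell by 3.97 on the log2 scale, with an SE of 0.50 and an adjusted p of 3.87e-05 (limma), and its second probe differed by -4.75. GDF10, a ligand of the same superfamily, fell from 0.04, 0.41, 0.89 and 0.16 to -4.81, -2.56, -2.93 and -3.60 (-3.85 ± 0.74, adjusted p = 0.00577, limma; up to 0.0927 without 1 yak), and its second probe differed by -2.31. Neither gene had an array of day +1 within the range of day -15.

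PNMT, which converts noradrenaline to adrenaline, stood at 1.77, -0.88, 2.00 and 1.71 at day -15 and at -3.44, -3.54, -3.38 and -2.56 at day +1, so that yak 2 had the lowest level before calving and the days still did not overlap. The difference was -4.38 ± 0.89 (adjusted p = 0.00881, limma; up to 0.171 without 1 yak). DRD1, a dopamine receptor, fell by 3.64 (adjusted p = 0.00263, limma), from between -1.35 and -0.40 to between -4.92 and -4.44. Leaving out yak 1 put its adjusted p at 0.0526. HES6, a transcription factor that opposes the Notch target HES1, fell by 3.28 (adjusted p = 0.026, limma; up to 0.236 without 1 yak). At day +1 its levels of -6.03, -5.78, -4.29 and -2.59 were spread the widest of the 10 falls, and yak 4 at day +1 overlapped with yak 3 at day -15 (-2.72).

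Of the 10 genes, chosen for their falls, 2 encode sulfotransferases. CHST8, which adds sulfate to N-acetylgalactosamine on glycoproteins such as pituitary hormones, went from -2.98, -4.65, -0.60 and -4.77 to -8.81, -7.00, -6.25 and -7.93, where 2 of the 4 arrays were above background. It fell by 4.25 in the fit (adjusted p = 0.0378, limma; up to 0.338 without 1 yak), and its size is uncertain because the levels of day +1 lie at the background. HS3ST1, which sulfates heparan sulfate, fell by 2.88 from levels of 1.20 to 2.24 to levels of -1.71 to -0.38 (adjusted p = 0.0218, limma; up to 0.163 without 1 yak). For neither gene did the days overlap.

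Among the 10 largest rises, RRAD was the one with a call in every fit without 1 yak (adjusted p 0.00017 to 0.0234, limma). This small GTP-binding protein of the RGK family, known for restraining calcium channels in muscle, stood at -1.88, -1.55, -1.76 and -2.36 at day -15 and at 3.06, 2.77, 2.46 and 2.28 at day +1. The days were far apart against the spread within each, with a difference of 4.53 ± 0.66 (adjusted p = 0.000275, limma), a 23.1-fold rise. Its other probe, shown above, had a difference of 2.68.

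CDH16, an atypical cadherin best known from kidney, rose from -5.79, -5.53, -5.49 and -5.73 to -0.07, -0.04, -1.10 and -1.30. The difference was 5.01 ± 1.18 (adjusted p = 0.0232, limma), a 32.1-fold rise without overlap, and the adjusted p was 0.156, 0.189 and 0.171 without yak 1, 2 and 3. FAM19A5, a secreted chemokine-like protein, was not above background on any array of day -15, and reached -2.64, -5.54, -2.33 and -0.95 at day +1. It was at least 14.3-fold higher at day +1 (adjusted p = 0.00921, limma; up to 0.137 without 1 yak), where the bound sets the mean of day +1 against the lowest signals above background. C11H2orf65 likewise exceeded background on no array before calving and on all 4 after it, and was at least 6.06-fold higher (adjusted p = 0.0261, limma; up to 0.215 without 1 yak).

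LGI2, a secreted leucine-rich repeat protein, rose by 4.38 ± 0.84 from between -6.57 and -5.95 to between -2.60 and -1.29 (adjusted p = 0.00577, limma; up to 0.0853 without 1 yak). GALNTL2, which starts mucin-type sugar chains, rose by 4.12 ± 0.94 (adjusted p = 0.0184, limma; up to 0.245), although its other probe differed by 1.14. SLC10A6, a carrier of sulfated steroid hormones, rose by 3.38 ± 0.87 (adjusted p = 0.0376, limma; up to 0.22), and all its levels at day +1 (-3.71 to -1.40) were above those of day -15 (-6.73 to -5.75). OLR1, a scavenger receptor for oxidised low-density lipoprotein, rose by 3.38 ± 0.69 (adjusted p = 0.00927, limma; up to 0.285). At day -15 it spanned -6.57 to -3.92, with yak 2 the highest, and at day +1 -2.99 to -1.47.

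**Figure D2:**
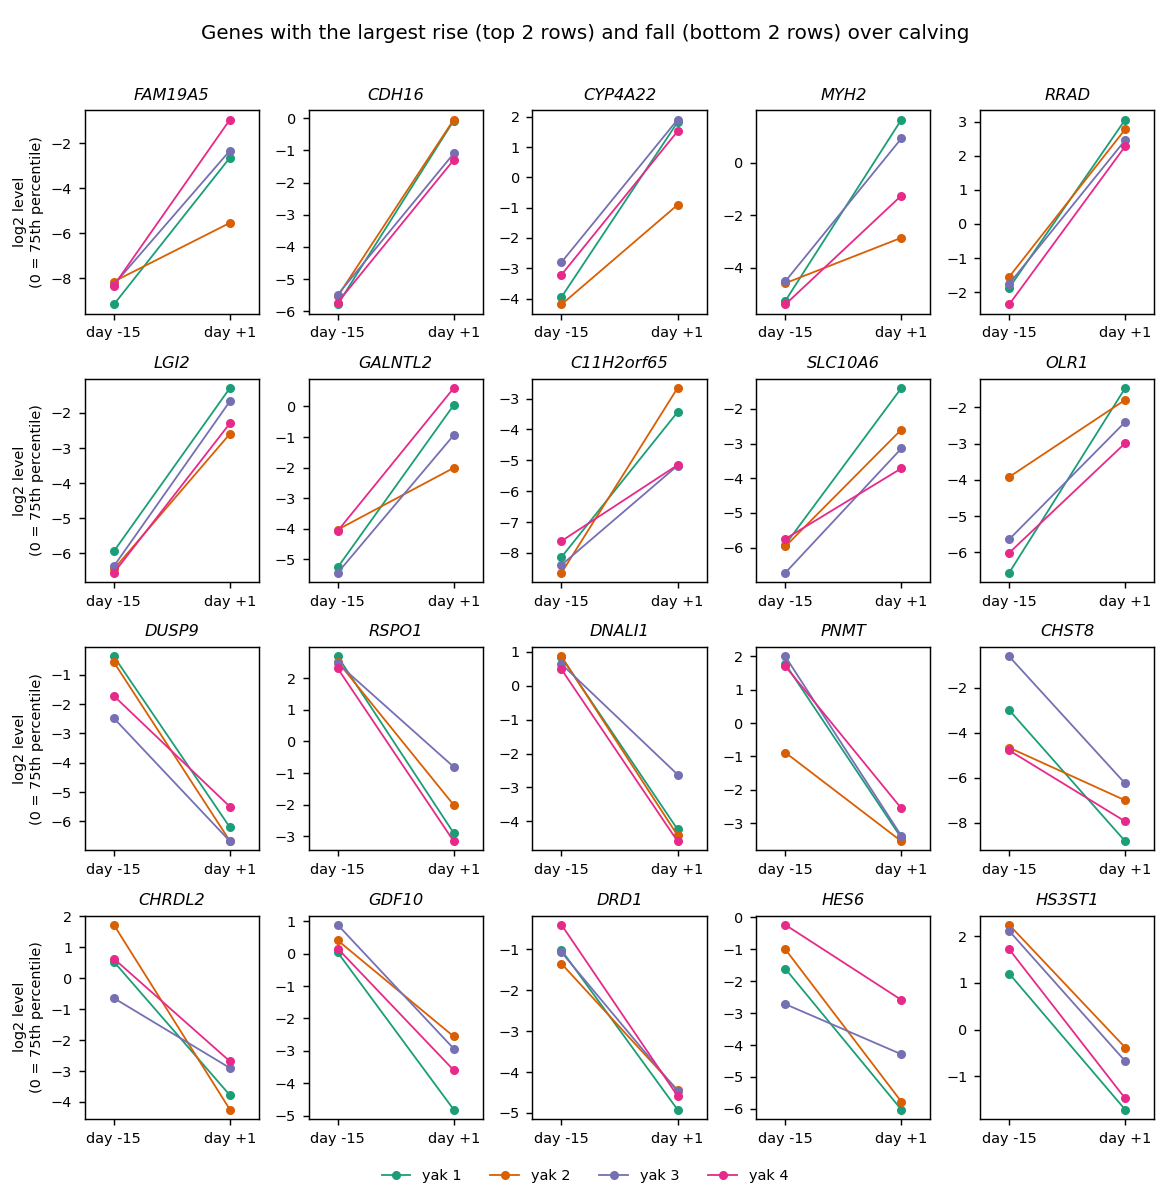
Each panel is 1 gene, with the log2 level on the vertical axis (zero being each array's 75th percentile) and day -15 and day +1 on the horizontal axis. Lines join the arrays of the same yak, in 1 colour per yak, with the 10 largest rises in the top 2 rows and the 10 largest falls in the bottom 2. The 4 lines run the same way in each panel, as the choice of genes required, and HES6 is a gene whose days overlap.

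The levels at the other days describe where the step stands in the course, with no test. RSPO1 averaged 2.21 at day -30, 2.50 at day -15 and -2.22 at day +1, and its means from day +15 to day +240 were between -4.51 and -3.42. DNALI1 likewise averaged 0.31 and 0.71 before calving, -3.97 at day +1 and between -4.88 and -3.94 later. DUSP9 and CHRDL2 followed the same course, with later means of -7.33 to -5.15 and -4.56 to -3.69. For these genes the 2 days before calving had similar means and every later day a lower one. In the opposite direction RRAD averaged -2.14 and -1.89 before calving, 2.64 at day +1 and 1.96 to 3.50 later. CDH16 was at -5.58 and -5.63, then -0.63, and later between -2.68 and 0.46.

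Other genes had their extreme mean at day +1. CYP4A22, of a family that hydroxylates fatty acids at their end, averaged -3.54 at day -15, 1.08 at day +1 and -1.60 at day +15, and every later mean was lower still. MYH2, a myosin heavy chain of fast skeletal muscle, averaged -4.95, then -0.38, then -4.43, and it was between -5.73 and -4.40 from day +30 on. PHGDH, the first enzyme of serine synthesis, had its lowest mean at day +1, 0.16, against 2.57 and 2.19 before calving and 1.36 to 2.30 afterwards. LGI2 averaged -6.34, -1.96 and -4.16 at day -15, +1 and +15. PHGDH was added to the named genes after its values were seen. It fell from 2.10, 2.37, 2.26 and 2.03 to -0.16, 0.45, 0.13 and 0.23 (-2.03 ± 0.36, adjusted p = 0.00333, limma; 0.0947 without yak 1).

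**Figure D3:**
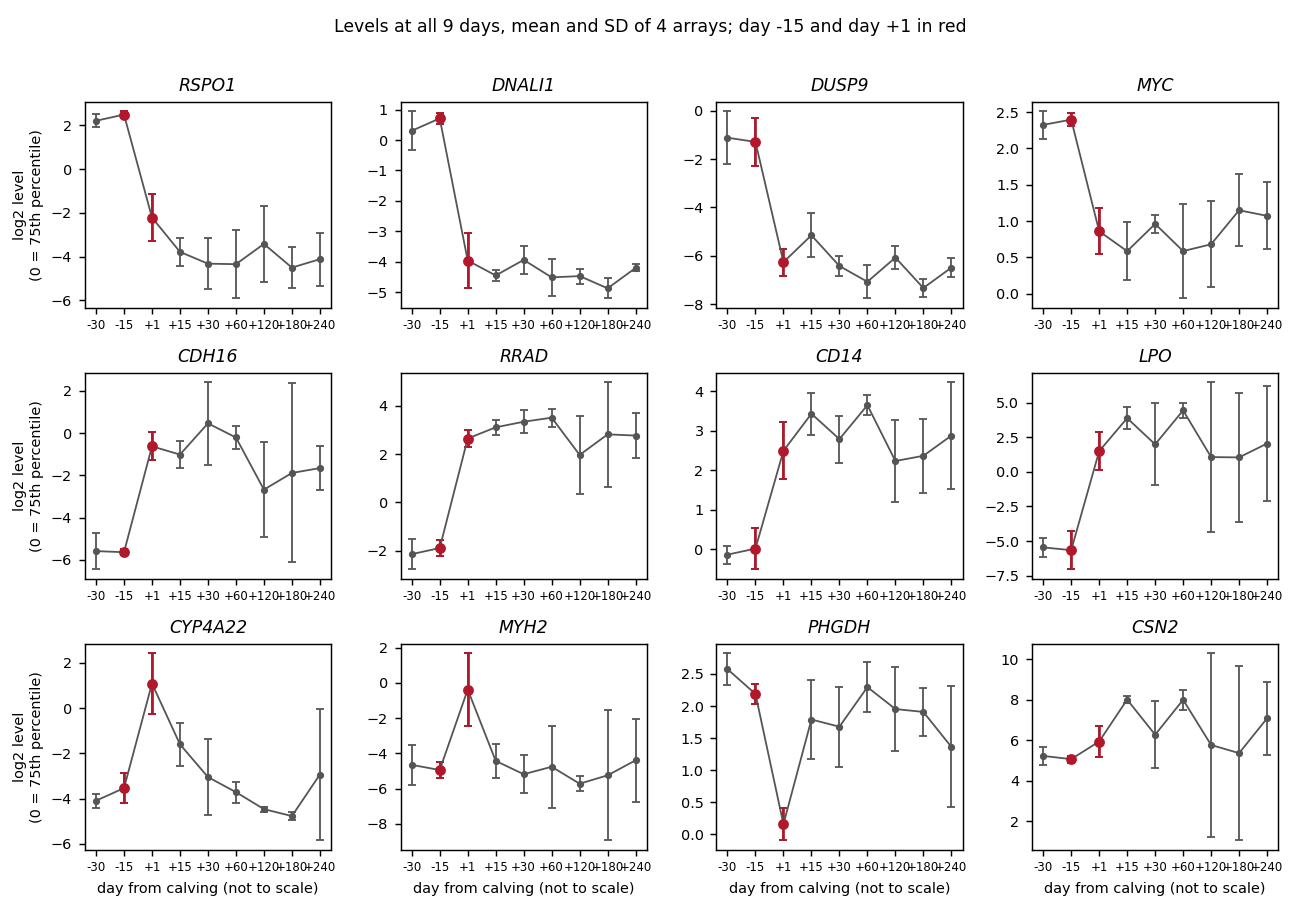
Each panel shows 1 gene at the 9 days, with the mean log2 level of 4 arrays and the SD as bars, and the day on the horizontal axis (not to scale). The red points are day -15 and day +1: the means of the top row and of CDH16, RRAD, CD14 and LPO stay on one side of their day -15 mean after calving, while CYP4A22 and MYH2 peak and PHGDH dips at day +1.

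Called genes were in places neighbours in the cattle genome. Each of the 239 called genes with a symbol and a position was set against the next called gene along its chromosome. This gave 11 pairs with probes within 100 kb of each other, and both genes of all 11 pairs moved the same way. RRAD and GNL2 each stand in more than 1 pair. Pairs with another called gene between them, such as RSPO1 and DNALI1, are not counted. Since 168 of the 239 calls were lower, many pairs would share a direction in any case, and whether called genes lie nearer to each other than other genes was not tested. The genes of these pairs, and the neighbours of CDH16, CYP4A22 and MYH2, were singled out after their values were seen. RSPO1 and DNALI1 lie 43.4 kb apart on chromosome 3 with GNL2 between them. GNL2, a nucleolar GTP-binding protein, fell by 0.72 ± 0.19 (adjusted p = 0.0481, limma; up to 0.314 without 1 yak), from levels of 3.05 to 3.49 to levels of 2.36 to 2.64.

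On chromosome 18, RRAD lies 12.9 kb and CES2 36.8 kb from CDH16 (chr18:34733137-34733196). CES2, a carboxylesterase, stood at -1.34, -1.52, -1.17 and -1.43 before calving and at 0.95, 0.58, 0.44 and 0.70 after it. It rose by 2.03 ± 0.40 (adjusted p = 0.0081, limma; up to 0.12 without 1 yak). A pair of genes beside it were not called: FAM96B, between RRAD and CES2, had a difference of -0.07 ± 0.21, and CES3, at 54.9 kb, one of -0.03 ± 0.28. CA7, a carbonic anhydrase 55.5 kb to the other side of CDH16, had a difference of 1.02 ± 0.40 and was not called (adjusted p = 0.19, limma).

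CYP4A11 lies 113.6 kb from CYP4A22 on chromosome 3. CYP4A22 stood at -3.95, -4.19, -2.80 and -3.21 at day -15 and at 1.82, -0.91, 1.90 and 1.52 at day +1, with yak 2 below the rest. It rose by 4.62 ± 0.84 (adjusted p = 0.00338, limma; up to 0.108 without 1 yak), while its other probe differed by 1.43. CYP4A11 rose by 2.56 ± 0.54 (adjusted p = 0.00968, limma; up to 0.157), from between -4.64 and -4.15 to -1.06, -3.05, -1.17 and -1.78, again with yak 2 the lowest. The longest run of bases shared by the probes of this pair was 6, and whether either binds RNA of the other gene was not tested. CYP4B1, 3.7 kb from CYP4A22, differed by 1.34 ± 0.99 and was not called.

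The myosin genes stand in a row on chromosome 19. MYH2 was at -5.27, -4.59, -4.53 and -5.41 at day -15 and at 1.65, -2.86, 0.93 and -1.25 at day +1. It rose by 4.57 ± 1.24 (adjusted p = 0.0492, limma), and in no fit without 1 yak was it called (up to 0.316). Its 3 probes had differences between 0.77 and 4.57. MYH1 rose by 2.07 ± 0.52 (adjusted p = 0.0327, limma; up to 0.296), from between -4.24 and -3.53 to -0.11, -3.23, -1.41 and -2.83. The order of the yaks at day +1 was the same for both, with yak 1 highest and yak 2 lowest. The other 2 probes of MYH1 had smaller differences, of 0.78 and 0.88. MYH8 was not called, at 2.21 ± 0.62 (adjusted p = 0.0562, limma), and MYH4 had a difference of -0.62. The probes of MYH1 and MYH2 share no run longer than 9 bases. That compares the probes alone, and whether a probe also binds RNA of the other gene was not tested.

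**Figure D4:**
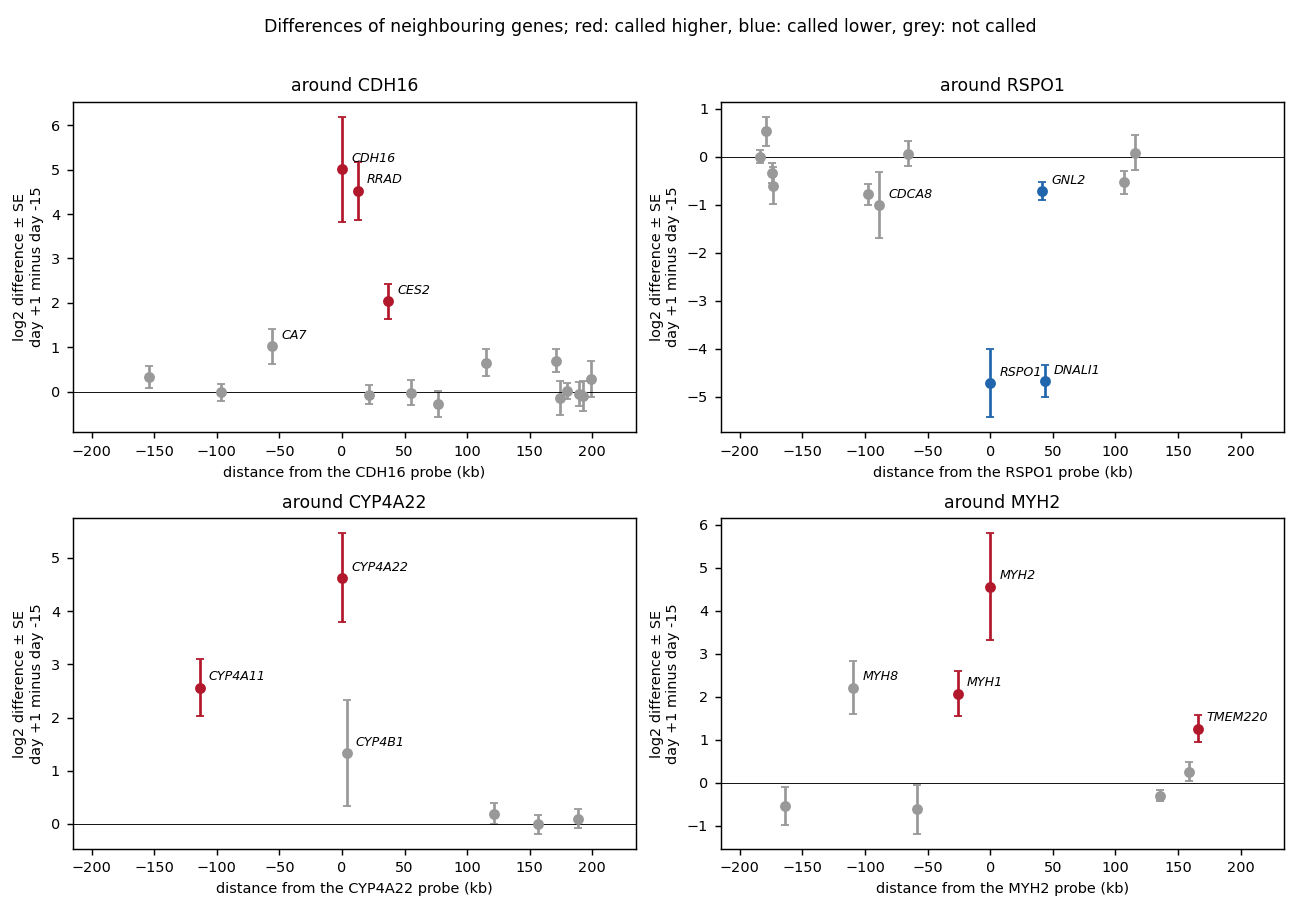
The 4 panels show the log2 difference between day +1 and day -15, with its SE, against the distance in kb from the probe of CDH16, RSPO1, CYP4A22 or MYH2. Red genes were called higher, blue lower and grey not called: the CDH16 panel holds 3 called genes, with the uncalled CA7 at 1.02 and CES3 near 0.

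Of the milk protein genes, none of the 9 measured was called (0 of 9, against 0.512% of all genes called higher), yet all 9 differences were above 0, with a median of 1.12 against -0.05 over all genes. In 7 of 9 all arrays of day +1 were above all of day -15 (7.05% of all genes). The fit to the 8 arrays alone called 4 of them higher (3.81% of all genes): CSN1S2, LALBA, LPO and LTF. CSN2, which encodes beta-casein, stood at 5.21, 5.18, 4.82 and 5.08 at day -15 and at 5.93, 5.10, 5.79 and 6.94 at day +1, so that the days overlapped. Its difference was 0.87 ± 1.48 (adjusted p = 0.839, limma). The SD of CSN2 was 0.18 at day -15 and 0.76 at day +1 but 4.53 at day +120, and its mean was 8.01 at day +15.

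CSN1S1 (1.13 ± 1.39), CSN3 (0.80 ± 0.80) and PAEP, the gene of beta-lactoglobulin (0.53 ± 1.09), likewise had differences no larger than about their SE. For CSN1S1 and CSN3, unlike CSN2, every array of day +1 lay above every array of day -15. The SE draws on all days, and the SD of CSN1S1 was 0.21 at day -15 and 0.63 at day +1 but 3.74 at day +120. Differences were larger for other milk proteins. CSN1S2, an alpha casein, went from 3.31, 3.24, 2.42 and 3.74 to 5.70, 4.75, 5.42 and 6.70 (2.47 ± 1.45, adjusted p = 0.44 in the limma fit of 36 arrays and 0.0173 in that of 8). LALBA, the subunit that makes galactosyltransferase produce lactose, went from 2.79, 2.81, 0.85 and 3.51 to 5.33, 4.40, 5.39 and 6.59 (2.94 ± 1.90, adjusted p = 0.493 and 0.0232). In both the days did not overlap.

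LPO, the antibacterial lactoperoxidase of milk, had the largest difference named here, 7.15 ± 1.98, and missed the threshold (adjusted p = 0.0548, limma; 0.012 in the 8 arrays alone). Its levels were -6.88, -4.10, -6.78 and -4.86 at day -15, with 3 of 4 arrays above background, and 0.78, 0.41, 1.30 and 3.47 at day +1. LTF, the iron-binding lactoferrin, went from 2.84, 2.99, 3.56 and 3.34 to 4.67, 4.15, 4.56 and 3.84 (1.12 ± 0.84), and its 5 probes had differences between 1.082 and 2.855. Both genes had every array of day +1 above every array of day -15. Yak 4, the dimmest array of day +1, had the highest level there of CSN1S1, CSN1S2, CSN2, CSN3, LALBA, PAEP and LPO, and the lowest of LTF. The part of brightness in these values was not tested beyond a fit with it as a covariate, in which CSN2, CSN1S1 and PAEP had differences of -0.42, -0.10 and -0.41.

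No gene of lactose or fat synthesis was called, which at 1.79% of all genes called is near the background for lists of this size. Of 10 genes for lactose and glucose uptake, 15 for fatty acid uptake and activation, 15 for fatty acid synthesis and desaturation, 11 for triacylglycerol synthesis and 21 for cholesterol synthesis, 0 were called, and the medians were 0.23, 0.38, 0.15, 0.26 and 0.08. FASN, the synthase of fatty acids up to palmitate, was at 3.78, 3.70, 3.63 and 3.75 at day -15 and at 3.27, 2.29, 3.34 and 4.74 at day +1 (-0.30 ± 0.70). The days overlapped, with 3 yaks lower and yak 4 higher. ACACA, which makes malonyl-CoA, showed the same pattern of yak 4 far above the others (-2.50, -2.79, -2.04 and 0.27 at day +1), and its difference of 0.21 ± 0.74 became -0.48 without that array.

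LPL, which frees fatty acids from blood lipoproteins, stood at 0.89, 0.13, 1.62 and 4.32 at day +1 and -0.61, 1.26, -1.22 and -0.22 at day -15 (1.94 ± 1.38). SCD, which desaturates stearate, had a difference of 0.80 ± 0.99, DGAT1, which completes triacylglycerol, one of 0.08 ± 0.29, and SLC2A1, a glucose carrier, one of 0.66 ± 0.52. ACSS1, which activates acetate in mitochondria, was higher in all 4 yaks (1.37 ± 0.42, adjusted p = 0.0865, limma; 0.0386 in the 8 arrays). LPIN1, a phosphatidate phosphatase, was at 2.25 ± 1.18 (0.369, and 0.0478 in the 8 arrays). ACLY, which supplies cytosolic acetyl-CoA, was lower in all 4 yaks at -0.64 ± 0.24 (0.169, and 0.036 in the 8 arrays). These values thus pointed in both directions within the same pathways.

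Regulators of lipid synthesis had 0 of 11 called and a median of 0.33. SREBF1, the sterol-regulated transcription factor of lipogenesis, was at -0.60 ± 0.54 and INSIG1, which retains it in the endoplasmic reticulum, at 0.70 ± 0.66. PPARGC1A, a coactivator of nuclear receptors, was higher in all 4 yaks at 1.32 ± 0.53 (adjusted p = 0.21, limma). HMGCS1, of the sterol pathway, was at -0.51 ± 0.33, and TM7SF2, a sterol reductase, at 2.06 ± 0.62 (adjusted p = 0.0759, limma; 0.0165 in the 8 arrays). Genes for the release of milk fat globules had a median of 0.97 with 9 of 10 above 0 and 0 called. Among them BTN1A1, the main butyrophilin of the globule membrane, had a difference of 1.19 ± 2.22 and XDH, its partner, 0.71 ± 0.65.

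Calcium handling had 0 of 9 called and a median of 0.57. ATP2B2, the pump that moves calcium into milk in the mouse, stood at -7.53, -7.35, -7.54 and -5.64 at day -15, with 1 of 4 arrays above background, and at -5.21, -4.18, -5.31 and -1.37 at day +1 with 4 of 4 above. Its difference of 3.00 ± 0.88 was not called (adjusted p = 0.069, limma; 0.0184 in the 8 arrays), and the days did not overlap. The 3 probes of ATP2B2 had differences between 0.65 and 3.00. PTHLH, a hormone that mobilises calcium from bone, was at 1.76 ± 0.91 (adjusted p = 0.356, limma).

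Hormone receptors and prolactin signalling gave no call: 0 of 9 and 0 of 10, with medians of 0.01 and 0.06. PGR, the progesterone receptor, was at -1.79, -1.70, -1.28 and -1.69 at day -15 and at -0.75, -0.73, -0.40 and -0.34 at day +1, higher in each yak without overlap (1.06 ± 0.40, adjusted p = 0.172, limma; 0.0203 in the 8 arrays). ESR1, an estrogen receptor, had a difference of -0.25 ± 0.44 and PRLR, the prolactin receptor, of 0.61 ± 0.44. For STAT5A, which carries the prolactin signal to milk genes, it was -0.29 ± 0.40, and for ELF5, an alveolar transcription factor, 0.62 ± 0.63. Of 6 measured WNT and RANKL growth signals, RSPO1 was the one called (1.27% of all genes were called lower). Of the 6, 5 were below 0, with a median of -0.22.

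All 28 measured genes of cell division were lower on average at day +1, with a median of -1.03, and 20 were lower in each of the 4 yaks (24.6% of all genes). One of them was called lower (1.27% of all genes), and the fit to the 8 arrays called 14 (6.76%). MCM7, a subunit of the helicase that opens DNA for replication, fell from 0.45, 0.38, 0.70 and 0.40 to -0.46, -0.49, -0.37 and -0.69. Its difference was -0.99 ± 0.24 (adjusted p = 0.0268, limma; in no fit without 1 yak called, up to 0.263), and its second probe differed by -0.29. MYC, a transcription factor of cell growth, was 1 of 22 immediate early and stress genes. It was the one of them called (1.27% of all genes were called lower). It fell from 2.27, 2.46, 2.47 and 2.38 to 0.88, 0.41, 1.10 and 1.06 (-1.54 ± 0.27, adjusted p = 0.00312, limma; 0.0655 without yak 3). The remaining members of that list had no call, and 16 of the 22 were above 0.

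Genes of the secretory machinery gave no call. All 52 cytosolic ribosomal protein genes had differences above 0, between 0.04 and 0.35, with a median of 0.23. Under other normalizations the direction was checked for RPL37 and RPL24 alone. RPL37, with the largest difference of the 52, turned under quantile normalization (-0.01) and under normexp with quantile normalization (-0.09). Whether the other members keep their direction was not tested. In the main fit, 7 of the 52 were higher in each of the 4 yaks (15.6% of all genes). Oxidative phosphorylation (43 genes), translocation and vesicle coats (28), protein folding (18), aminoacyl tRNA synthetases (20) and amino acid transporters (12) had medians of 0.17, 0.25, 0.20, 0.00 and 0.15. Tight junction and matrix genes had 0 of 11 and 0 of 18 called, with medians of 0.22 for both. TIMP1, an inhibitor of matrix proteases, was at 1.17 ± 0.34 (adjusted p = 0.07, limma; 0.0184 in the 8 arrays).

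Of 18 innate defence genes, CD14 was the one called (0.512% of all genes were called higher). Of the 18, 14 were above 0, with a median of 0.39. CD14, a receptor for bacterial lipopolysaccharide that is also shed into milk, stood at -0.67, 0.51, -0.13 and 0.35 at day -15 and at 2.35, 1.77, 2.35 and 3.49 at day +1. It rose by 2.48 ± 0.51 (adjusted p = 0.00966, limma; up to 0.114 without 1 yak) without overlap, and its 3 probes had differences of 2.48 to 3.46. CXCL3, a chemokine for neutrophils named after its values were seen, rose by 2.88 ± 0.77 (adjusted p = 0.0469, limma; up to 0.255), from -3.20, -0.83, -2.12 and -1.28 to 1.50, 0.44, 0.50 and 1.65. The fit to the 8 arrays called 6 of the 18 higher (3.81% of all genes) and 1 lower.

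CCL28, which draws antibody-secreting cells to the mammary gland in the mouse, rose from 0.65, -0.91, 0.27 and 0.63 to 2.25, 1.28, 1.32 and 2.40. It was 1 of 9 genes of antibody transfer and mucosal defence and the one of them called (0.512% of all genes were called higher). Its difference was 1.66 ± 0.36 (adjusted p = 0.0138, limma, in no fit without 1 yak called, up to 0.141). The second CCL28 probe differed by 1.75. Interferon response genes had 0 of 20 called and a median of 0.27, and antigen presentation 0 of 14, with 12 below 0 and a median of -0.23.

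Of the markers of cell types that a biopsy can hold, at most 2 of a list were called in the fit of 36 arrays. Over all genes 1.79% were called, 0.512% higher and 1.27% lower. Some lists lay to one side of 0. All 13 measured basal and myoepithelial markers were above 0, with a median of 0.95, and 12 were higher in each yak (15.6% of all genes). OXTR, the oxytocin receptor, was the one called: it stood at -0.53, -1.19, -0.40 and -0.70 before calving and at 1.54, 1.36, 1.56 and 0.60 after it (1.97 ± 0.44, adjusted p = 0.0157, limma; in no fit without 1 yak called, up to 0.194). The fit to the 8 arrays called 9 of the 13 higher (3.81% of all genes). The mean level of the 13 markers per array ran from 2.33 to 2.85 at day -15 and from 3.05 to 3.94 at day +1. The part of myoepithelial RNA in the rise of OXTR was not tested.

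Luminal epithelial markers had 0 of 10 called and a median of 0.35. T and NK cell markers had 0 of 13 called but 12 below 0 (median -0.63), with list means of -0.64 to -0.07 at day -15 and -1.52 to -0.76 at day +1. B and plasma cell markers had 6 of 8 below 0 (median -0.39), adipocyte markers 7 of 10 (median -0.59) and red blood cell markers 4 of 7 (median -0.36), with 0 called in each. Endothelial markers had a median of 0.19 and macrophage markers, which include CD14, a median of 0.11, with list means of 1.09 to 1.62 at day -15 and 1.55 to 1.96 at day +1. The part of macrophages in the rise of CD14 was not tested.

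Of 12 neutrophil markers, PGLYRP1 was the one called and it fell, while 9 of the 12 were above 0 and the median was 0.58. PGLYRP1, a peptidoglycan recognition protein of neutrophil granules, stood at 0.58, 0.89, 0.61 and 0.46 at day -15 and at -2.10, -2.32, -1.62 and -2.02 at day +1. Its fall of -2.65 ± 0.39 (adjusted p = 0.000275, limma) remained called without any 1 yak, and its second probe differed by -2.39. The mean level of the 12 markers per array was -2.69 to -1.75 at day -15 and -2.37 to -1.64 at day +1, and its part in the fall was not tested. Skeletal muscle markers had 2 of 8 called higher, MYH1 and MYH2 (0.512% of all genes). Of the 8, 5 were above 0 and 3 below, 4 were higher in each yak (15.6% of all genes) and 2 lower in each (24.6%). In 3 every array of day +1 lay above every array of day -15 (7.05% of all genes), and in 0 below (12.3%). The fit to the 8 arrays called 3 of them higher (3.81% of all genes), namely MYH1, MYH2 and DES. The list median was 0.19, with list means of -1.89 to -1.55 at day -15 and -1.37 to -0.33 at day +1. The part of muscle in the biopsies in the rise of both myosins was not tested.

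**Figure D5:**
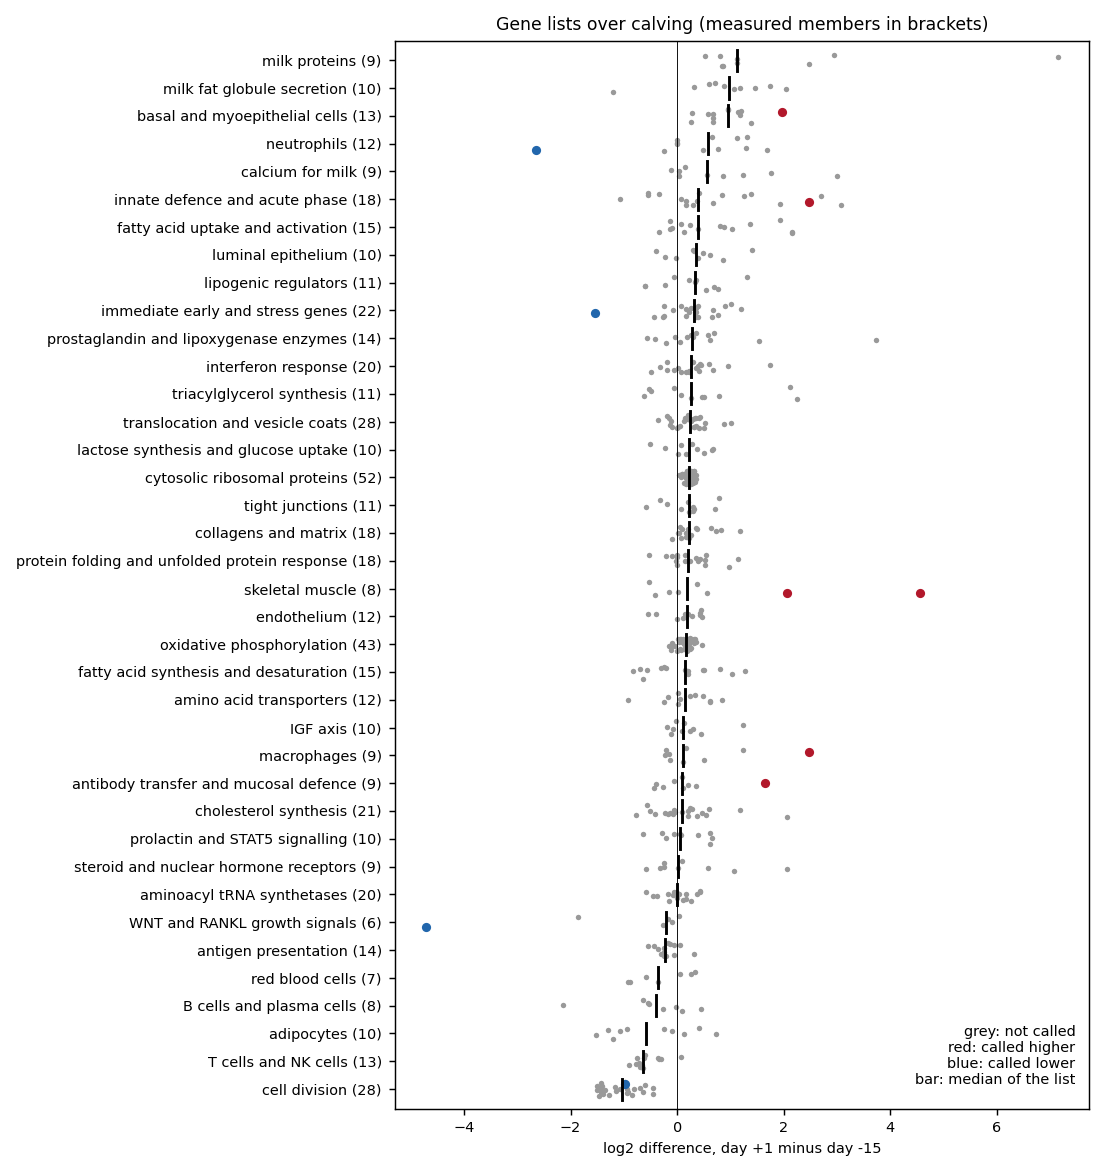
Each row is 1 of 38 gene lists with its number of measured genes, and each point 1 gene, placed by its log2 difference between day +1 and day -15. Red and blue points were called higher and lower, grey points were not called, and the black bar is the median, which runs from -1.03 for cell division to 1.12 for milk proteins.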

How the data were processed

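RNA of 36 biopsies was measured on single-dye arrays. Per the file headers, Feature Extraction 10.7.3.1 made the deposited scanner files, which give an intensity for each spot and quality marks of another kind, 0 or 1, for spots above background, saturated (0 spots) or out of line (10 to 151 an array). Per the labels, the authors normalized with GeneSpring 12 and tested with JMP genomics 7, and the deposited matrix of log2 values holds 34997 of the 43653 probes, each array set to 0 at its 75th percentile. This deposited log2 matrix was the main source, and the scanner files supplied symbols, positions and background marks, and the alternatives.

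For each gene the probe with the highest mean over 36 columns was kept, which gave 20110 genes or unnamed transcripts, 13423 with a symbol, of which 11572 are in the yak gene table of assembly Bosgru_T2T1.0. The fit used limma 3.58.1 (R 4.3.3, with statmod 1.5.0 for the block) over all 36 columns, with day as fixed effect and yak as random block (duplicateCorrelation, consensus correlation 0.0531), two-sided, adjusted by Benjamini-Hochberg over all genes. The number of arrays limits the precision. The same number is the same animal per the labels. Deviations from the day mean correlated between the arrays of a yak at both days (r across genes, which are not independent replicates, of 0.358, 0.198, 0.494 and 0.262 for yaks 1 to 4). Over all pairs of different days the mean r was 0.156 within a yak and -0.0523 between yaks. Each yak lies at 1 position on every slide, so these r cannot tell animal and position apart. On simulated data with 20110 genes the code recovered 31 of 100 genes given a log2 change of 1, 77 of 100 given a change of 2, and called 7 unchanged genes for this contrast. The simulated noise was normal, independent and equal in SD over all days, with no effect of yak. In the real arrays the SD of a gene differed between days, so these counts need not hold there. A gene above background on 0 arrays of a day has a fold bound only.

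The 38 gene lists, the tests and the comparison itself were chosen with earlier results of these data known. Named genes were the 10 largest rises and the 10 largest falls among called genes with a symbol, equal in sign in all 4 yaks and above background on at least 3 of 4 arrays of the higher day. To these came 30 genes of milk synthesis and its control (TOP2A was not analysed here) and up to 3 called members of each list, or else the 2 with the smallest p. GNL2, CES2, FAM96B, CES3, CYP4A11, CYP4B1, MYH8, CXCL3, PHGDH, CA7 and MYH4 were added after their values were seen, and 1 gene that the rule names is not reported here. Alternatives were other blocks, the 8 arrays alone, each yak left out, the scanner files' record, normexp (offset 50) with quantile normalization, quantile normalization, median centring, filters on probes, the mean of probes, brightness as a covariate and an ordinary linear model per gene. Python 3.11.15, numpy 2.4.6, pandas 2.3.3 and matplotlib 3.10.9 made the tables and figures.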

Additional observations from a re-analysis of the deposited data

Results flagged for a closer look

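In 11 of 228 groups of 4 arrays (114 named genes at 2 days), 1 array stood apart from the other 3 by more than Dixon's test allows, and chance flags about 1 in 20 groups. Among the called genes, CYP4A22 in yak 2 at day +1 was at -0.908, against 1.52 to 1.90 in the others. PNMT in yak 2 at day -15 was at -0.881, against 1.71 to 2.00, and PNMT in yak 4 at day +1 was at -2.556, against -3.54 to -3.38. The other 8 belong to genes that were not called. Yak 4 at day +1 stood apart for SLC7A5, an amino acid carrier, at 0.979 (others -0.43 to -0.20) and for CYP4B1 at -2.953 (others 0.55 to 1.04). At day -15 it did so for ATP2B2, at -5.638 (others -7.54 to -7.35). Yak 1 stood low for DGAT1 at day +1, at -1.564, for ERG, an endothelial transcription factor, at day +1, at -0.155, and for OAS2, an interferon-induced antiviral enzyme, at day -15, at -4.908. Yak 2 stood high for CFD, the complement factor of adipocytes, at day -15, at 2.221, and yak 3 for GYPC, a red cell glycoprotein, at day +1, at 2.532.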

How the results depend on the processing

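The number of genes called was 359 (103 higher, 256 lower). It was within 1.5 times of that with a fixed replicate block (414), no replicate block (265), median centring (260), above-background probes (360), all probes (366), the mean of probes (354) and an ordinary linear model (455). Without yak 4 at day +1 it was 242 (75 higher, 167 lower), a setting added after seeing the data. It was larger in the 8 arrays alone with the replicate block (2126, 767 higher, 1359 lower) or without the pairing (1934, 690 and 1244), after normexp and quantile normalization (753, 220 and 533), quantile normalization (765, 230 and 535), with brightness as a covariate (1307, 399 and 908) and, added after seeing the data, without yak 4 at day +120 and +180, low in milk protein mRNA (666, 219 and 447). Leaving out 1 yak gave 30 to 161 (7 to 46 higher, 20 to 115 lower). The record of the scanner files gave 1 (1 higher, 0 lower). The cause of these changes was not tested. With no replicate block 28 of the 32 named calls held, with a fixed one all 32.

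Under the record of the scanner files 40 of 114 named differences changed sign. Among called genes these were CYP4A22 (-0.68), MYH2 (-1.99), LGI2 (-0.65), C11H2orf65 (-0.76), SLC10A6 (-0.86), DUSP9 (0.34), GDF10 (0.094), HES6 (0.71), OXTR (-0.032), PGLYRP1 (0.042), MYH1 (-1.42), GNL2 (0.16), CYP4A11 (-0.73) and PHGDH (0.60). Uncalled ones were FASN (1.58), SREBF1 (1.62), HMGCS1 (1.01), PRLR (-0.85), STAT5A (0.34), ESR1 (0.52), FADS1 (-0.50), LPIN3 (0.36), SOCS2 (-0.39), IGF1R (-0.24), IGFBP5 (-1.50), CLDN7 (-0.45), TIMP1 (-0.39), FARSB (0.12), FARSA (0.75), SLC7A5 (1.91), PTGES (-0.21), ELF3 (-1.03), FOXA1 (0.13), LIPE (0.55), ERG (-0.020), GYPC (-0.26), FAM96B (0.21), CES3 (0.69), CYP4B1 (-3.41) and MYH8 (-1.64). Elsewhere only uncalled genes changed sign: with brightness CSN1S1 (-0.10), CSN2 (-0.42), PAEP (-0.41), ACACA (-0.44), SCD (-0.16), BTN1A1 (-0.79) and ELF5 (-0.013), with the mean of probes CES3 (0.075), with normexp ESR1 (0.004) and RPL37 (-0.089), with quantile normalization RPL37 (-0.011), and without the array of yak 4 at day +1 ACACA (-0.48). Over the fits without 1 yak, differences ran from -0.485 to 0.658 for ACACA, -0.196 to 0.092 for CES3, -0.005 to 0.184 for DGAT1, -0.654 to 0.092 for ESR1, -0.148 to 0.015 for FAM96B and -0.734 to 0.063 for FASN. Signal near background limits low levels such as those of FAM19A5 and C11H2orf65.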

Other observations

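Apart from the comparisons above, a pair of gene groups was put together after their values were seen, so their counts are a description only. Of 64 measured nucleolar factors of ribosome biogenesis, 10 were called lower (1.27% of all genes) and 0 higher, 57 were below 0 and the median was -0.53, against -0.05 over all genes. The called ones were NPM3, NOL6, PPAN, RRS1, CD3EAP, NIP7, POLR1C, NAT10, CIRH1A and GNL2, and the fit to the 8 arrays called 18 of the 64 lower (6.76% of all genes). These factors make and process ribosomal RNA and assemble the subunits. The 52 ribosomal protein genes themselves had a median of 0.23, although RPL37 among them turned below 0 under quantile normalization. Of 13 enzymes of serine and one-carbon metabolism, PHGDH was called lower and 11 were below 0, with a median of -0.28.

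The other called neighbours within 100 kb, beside those in the report, were GON4L and MSTO1 (-1.08 and -1.87, with probes 13 bases apart), CYP11B1 and THEM6 (-0.87 and -1.75), ATP6V0A4 and TMEM213 (-1.50 and -0.90), PPAN and DNMT1 (-1.16 and -0.87), MYT1 and C13H20orf201 (-1.02 and -0.57), and POLD1 and LRRC4B (-0.92 and -0.74).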
